A study of Mus musculus with 10 samples.

Results

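Transcripts of the machinery that brings proteins into mitochondria were examined in mouse heart muscle cells from the atrium and the ventricle. The genes were chosen by name: every gene symbol that begins with Timm or Tomm followed by a digit, and every symbol made of Chchd and a number. The rule found 34 of the 25239 symbols in the tables, made up of 15 Timm, 11 Tomm and 8 Chchd genes. RNA was measured in WT cardiomyocytes, the contractile muscle cells of the heart, with 5 libraries from the atrium and 5 from the ventricle. The labels give no age, sex or treatment for these mice, and do not say that the libraries of a chamber came from separate animals. The p-values below therefore rest on the spread among libraries, some of which may be technical. These are bulk samples, in which fewer cells of a type and less RNA per cell cannot be told apart.

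Nearly all proteins of a mitochondrion are encoded in the nucleus, made in the cytosol and carried in through protein complexes in its membranes. The TOM complex of the outer membrane holds receptors, which bind the incoming chain, and a pore, through which it passes. Behind it, the TIM23 complex moves chains with a cleavable presequence into the matrix, the TIM22 complex inserts carrier proteins into the inner membrane, and small TIM chaperones escort hydrophobic chains across the space between the membranes. The Chchd proteins share a small fold held by disulfide bonds, which the oxidoreductase Chchd4 makes as they enter, and they serve in cristae, in the mitochondrial ribosome and in stress signalling. Heart muscle is packed with mitochondria and depends on this import for its respiratory chain.

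The values are reads per gene divided by a size factor for each library, called normalized reads here. The libraries fell into a pair of sets, each with both chambers, that the data show and the labels do not name. The 4 libraries numbered 1 and 2 held 1790402 to 4445287 recovered reads, of which the ribosomal precursor Rn45s made up 0.215% to 0.480%. In this set depth went with the chamber, at 4445287 and 3893406 reads in atrial and 1790402 and 2461191 in ventricular libraries. The 6 libraries numbered 3 to 5 held 11163805 to 12842635 reads, with 23.1% to 29.8% from Rn45s. Replicate 1 had reads in 21576 genes in the atrial and 19232 in the ventricular library, against 15950 to 16618 in all other libraries. The chamber markers went with the labels: Myl7, the atrial regulatory light chain, averaged 18546 ± 1111 normalized reads in atrial and 237 ± 189 in ventricular libraries, and Myl2, its ventricular counterpart, averaged 75.2 ± 42.3 in atrial and 104414 ± 21750.2 in ventricular libraries (SD, n = 5 each). Of the 34 import and Chchd genes, 31 averaged at least 10 normalized reads and were tested. Tomm20l, a paralog of a receptor, lay at 1.18 to 3.22 normalized reads in atrial and 1.34 to 7.31 in ventricular libraries. Timm8a2, a paralog of a small TIM chaperone, lay at 0 to 4.14 in atrial and 0 to 3.46 in ventricular libraries, and the antisense transcript Tomm6os at 0.590 to 2.88 in atrial and 0 to 6.92 in ventricular libraries, so none of these 3 was tested.

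Of the 31 tested genes, 8 were lower in atrial than in ventricular cardiomyocytes, and 29 had a negative fitted difference, which for Chchd5 was close to 0. The 8 were the pore Tomm40, the receptors Tomm70a and Tomm22, the TIM23 subunits Timm21 and Timm17a, the small chaperones Timm10 and Timm8a1, and the cristae protein Chchd3. None was called higher in atrial cells. The median log2 difference, atrial minus ventricular, was -0.41 over the 31 genes and -0.01 over all 12422 genes tested. The range ran from -1.05 for Tomm40 to 0.10 for Timm17b, and the second positive value was 0.02 for Tomm6. Differences were tested with limma on a log2 scale with 1 added to each value, and a gene was called at a Benjamini-Hochberg adjusted p under 0.05 over all genes tested. This called 6.56% of all genes lower in atrial cells, and 14.7% in either direction. With libraries of the same replicate number treated as pairs (a replicate block), limma called 19 of the 31 lower and none higher, against 16% of all genes called lower. The labels do not state that such libraries are pairs. With the library set as a term in place of the block, 17 were called lower, against 15.8% of all genes. At an unadjusted p under 0.05, 11 of the 31 passed limma without the block, against 26.1% of all genes. With the block 21 passed, against 42.7% of all genes. On the recovered reads, edgeR and DESeq2 each called 9 lower and 0 higher, the same 8 and Timm13, against 7.37% of all genes called lower by edgeR and 9.81% by DESeq2. The 2 chambers did not overlap, with every atrial library below every ventricular one, for 7 of the 31 genes, against 6.55% of all genes. In 18 genes the atrial library lay below its same-numbered ventricular library in 5 of 5 numbers, against 20.7% of all genes. Scaling all libraries to equal totals left 3 genes called lower (Tomm40, Chchd3 and Tomm70a), against 4.34% of all genes, and the adjusted p of the other 5 then lay between 0.0515 for Tomm22 and 0.195 for Timm17a. These totals include Rn45s, at 0.215% to 0.480% of reads in replicates 1 and 2 and 23.1% to 29.8% in replicates 3 to 5. The part of Rn45s in this lower count was not tested.

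**Figure D1:**
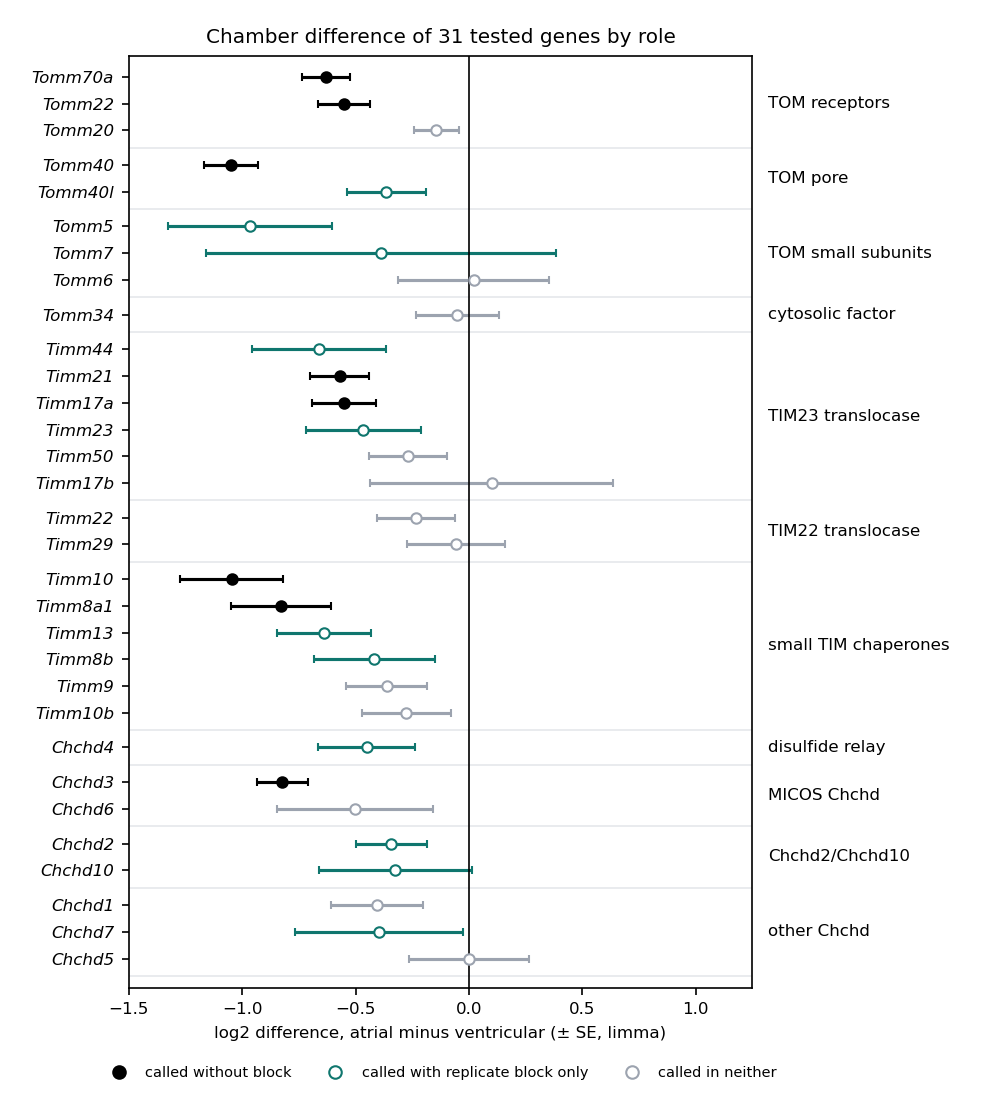
Log2 difference (atrial minus ventricular, x axis) of the 31 tested genes, grouped by role, with bars of ± 1 SE from limma over 5 atrial and 5 ventricular libraries. Filled black points are the 8 genes called without the replicate block, green open points the 11 called only with it, and grey open points the 12 called in neither; Timm17b and Tomm6 lie right of 0, Chchd5 lies almost on it and the others lie to its left.

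Tomm40, which forms the channel through which nearly every imported protein passes, had the greatest fitted difference together with Timm10. The gene lies on the minus strand at chr7:19701313-19715438 (GENCODE M21, GRCm38, introns included). It had 114, 115, 136, 120.3 and 131 normalized reads in atrial replicates 1 to 5, against 253, 256, 296, 269 and 211 in ventricular replicates 1 to 5. The highest atrial library lay well below the lowest ventricular one. Means were 123 ± 9.52 in atrial and 257 ± 31.05 in ventricular libraries (SD, n = 5 each), a 0.480-fold level. The log2 difference was -1.05 ± 0.12 (SE) with an adjusted p of 0.000198 by limma. Tomm40l, a paralog that can also form a pore, had 203, 240.4, 178, 158 and 163 in atrial and 208, 341, 248, 213 and 211 in ventricular libraries. Each atrial library was below its ventricular partner, but the chambers overlapped. On the log2 scale the difference was -0.36 ± 0.17 with an adjusted p of 0.212 by limma, and 0.0179 with the replicate block. Of its exons, 64.3% lie over the gene Nr1i3 on the opposite strand, which had a mean of 2.23 normalized reads.

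Among the receptors, Tomm70a and Tomm22 were lower and Tomm20 was not called. Tomm70a, which binds carrier proteins and the chaperones that deliver them, had 750.3, 1022, 936, 985 and 962 normalized reads in atrial and 1436, 1526, 1456, 1338 and 1421 in ventricular libraries. No atrial library reached a ventricular one. The log2 difference of Tomm70a, at chr16:57121703-57156705 on the plus strand, was -0.63 ± 0.11, with an adjusted p of 0.00240 by limma. Tomm22, the central receptor that ties the pores of the complex together, had 177, 222, 203, 208 and 203 in atrial and 242, 307, 303, 317 and 318 in ventricular libraries. The chambers were again apart, with ventricular replicate 1 closest to the atrial values. For Tomm22 (chr15:79670861-79673400, plus strand) the log2 difference was -0.55 ± 0.11 with an adjusted p of 0.00762 by limma. Tomm20, the receptor for presequences, had 517, 445, 449.9, 471 and 420.3 in atrial and 539.7, 499.7, 459, 538 and 505 in ventricular libraries. Each atrial library was below its ventricular partner and the chambers overlapped. Tomm20 had a log2 difference of -0.14 ± 0.10, with a 95% interval of -0.36 to 0.07 and an adjusted p of 0.421 by limma.

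Within a library, the ratio of one gene's normalized reads to another's does not depend on the scaling of that library. These ratios were chosen after the values had been seen and carry no test. The ratio of Tomm40 to Tomm20 lay at 0.221 to 0.311 in atrial and 0.417 to 0.646 in ventricular libraries, and that of Tomm70a to Tomm20 at 1.45 to 2.30 in atrial and 2.49 to 3.18 in ventricular libraries. Neither pair of ranges overlapped, while those of all other ratios formed did. Tomm40 to Tomm40l lay at 0.479 to 0.802 in atrial and 0.75 to 1.26 in ventricular libraries. Timm10 to Timm9, Timm8a1 to Timm8b, Timm13 to Timm8b, Chchd3 to Chchd6 and Chchd10 to Chchd2 overlapped as well. The ratio of Tomm22 to Tomm20 averaged 0.443 ± 0.0616 in atrial and 0.589 ± 0.0824 in ventricular libraries, lower in atrial cells in 5 of 5 replicate numbers but with overlap.

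**Figure D2:**
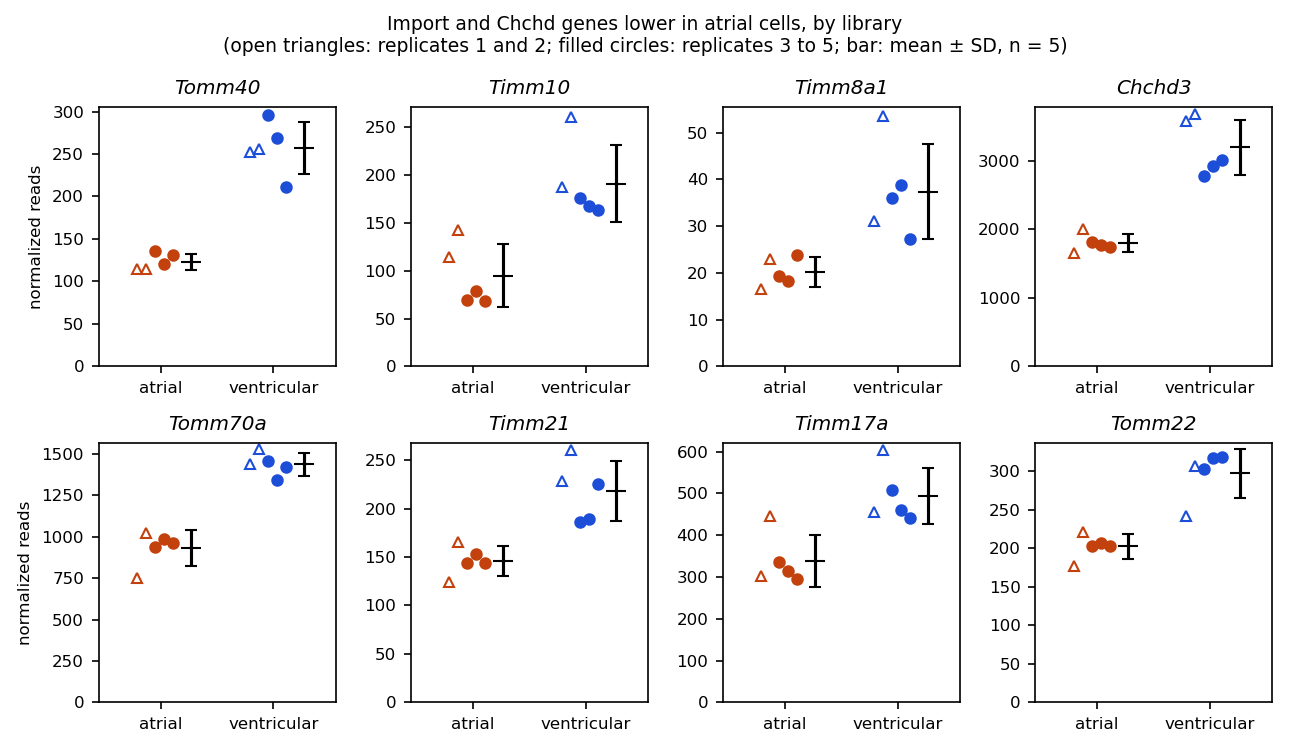
Normalized reads (y axis, from 0) of the 8 genes called lower in atrial cells, in each atrial and each ventricular library; triangles are replicates 1 and 2, circles replicates 3 to 5, and the bar is the mean ± SD of 5 libraries. Timm17a is the single gene of the 8 whose chambers overlap, through atrial replicate 2 at 446.

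The start regions of the genes were searched for short known sequence motifs. RefSeq windows from 250 bases before to 50 after the transcription start (GRCm38.p6) were found for 29 of the 34 genes, 26 of the 31 tested and 7 of the 8 called. The core CCGGAAG, bound by ETS factors including GABP, which is known as a regulator of nuclear genes for mitochondrial proteins, was searched on both strands. It stood in 10 of the 26 tested genes and in 4 of the 7 called ones, against 20.2% of all tested genes with a window and 9.93% of all windows. A match is a description of the letters, not a binding site. The windows of the 5 called genes with the smallest adjusted p among those with a window are printed 5′ to 3′ on the gene's strand, with every match on either strand in capitals. They are Tomm40 (chr7:19715380-19715679, minus strand), Chchd3 (chr6:33060211-33060510, minus strand), Tomm70a (chr16:57121464-57121763, plus strand), Tomm22 (chr15:79670618-79670917, plus strand) and Timm10 (chr2:84826771-84827070, plus strand).
Tomm40: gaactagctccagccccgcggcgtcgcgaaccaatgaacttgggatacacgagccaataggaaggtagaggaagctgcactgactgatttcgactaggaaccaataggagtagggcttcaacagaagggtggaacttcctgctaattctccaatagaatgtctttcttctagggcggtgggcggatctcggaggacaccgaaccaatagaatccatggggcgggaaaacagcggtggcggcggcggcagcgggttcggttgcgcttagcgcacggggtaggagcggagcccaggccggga
Chchd3: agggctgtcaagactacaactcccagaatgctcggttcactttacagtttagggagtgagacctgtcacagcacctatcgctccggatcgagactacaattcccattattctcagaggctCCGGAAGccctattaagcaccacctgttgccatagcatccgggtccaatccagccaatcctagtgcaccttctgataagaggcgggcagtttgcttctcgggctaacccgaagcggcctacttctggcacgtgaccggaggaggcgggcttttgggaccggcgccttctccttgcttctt
Tomm70a: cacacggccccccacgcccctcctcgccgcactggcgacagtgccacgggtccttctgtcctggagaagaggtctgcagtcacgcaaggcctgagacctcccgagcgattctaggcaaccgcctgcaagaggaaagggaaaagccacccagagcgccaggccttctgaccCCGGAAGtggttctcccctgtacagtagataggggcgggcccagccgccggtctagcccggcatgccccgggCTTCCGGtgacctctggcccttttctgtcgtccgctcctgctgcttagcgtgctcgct
Tomm22: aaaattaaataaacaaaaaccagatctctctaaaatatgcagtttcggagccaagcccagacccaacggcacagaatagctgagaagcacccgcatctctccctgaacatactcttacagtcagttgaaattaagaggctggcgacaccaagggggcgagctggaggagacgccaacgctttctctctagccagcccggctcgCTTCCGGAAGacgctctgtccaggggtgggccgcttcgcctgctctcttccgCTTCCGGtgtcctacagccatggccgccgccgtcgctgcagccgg
Timm10: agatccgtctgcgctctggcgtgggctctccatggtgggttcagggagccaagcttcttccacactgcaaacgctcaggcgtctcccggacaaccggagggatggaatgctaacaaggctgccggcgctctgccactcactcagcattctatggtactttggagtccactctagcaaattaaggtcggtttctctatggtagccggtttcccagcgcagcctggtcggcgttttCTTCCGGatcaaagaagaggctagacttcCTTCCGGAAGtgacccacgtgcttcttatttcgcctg
The window of Tomm40 held no match. With the transcription start counted as 0 and upstream positions negative, the leftmost base of a match lay at -130 in Chchd3, at -80 and -8 in Tomm70a, at -47, -44 and 5 in Tomm22 and at -16, 13 and 16 in Timm10. In Tomm22 and Timm10, the matches 3 bases apart lie on opposite strands and overlap in 1 run of capitals. The NRF1 palindrome, which is GCGC, 1 free base and TGCGC, stood in 3 of the 26 (Chchd4, Timm8b and Tomm20), against 11.6% of tested genes. The E-box CACGTG stood in 6 of the 26, among them the called Chchd3, Timm10 and Timm8a1, against 11.9% of tested genes. The response element of estrogen-related receptors, TNAAGGTCA, stood in Timm8b alone, against 0.873% of tested genes, and the YY1 core AAGATGGC in Timm50 alone, against 5.34%. No match says only that these letters are not in this window.

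The small subunits Tomm5, Tomm6 and Tomm7, which stabilise the TOM complex, were not called by limma over all 10 libraries with chamber as its only term. Tomm5 had 108, 248, 106, 80.2 and 88.8 normalized reads in atrial and 332, 397, 147, 196 and 153 in ventricular libraries. Each atrial library was below its ventricular partner, but atrial replicate 2 lay within the ventricular range. Tomm5 differed by -0.97 ± 0.36 on the log2 scale, with an adjusted p of 0.111 by limma and 0.00288 with the replicate block. Without atrial replicate 2 it was -1.24 ± 0.31 with an adjusted p of 0.0234. Tomm7 had 1687, 2313, 395, 319 and 254 in atrial and 2093, 2713, 449, 446 and 421 in ventricular libraries. In both chambers replicates 1 and 2 were far above replicates 3 to 5, and within each number the atrial library was the lower. Its log2 difference was -0.39 ± 0.77, with an adjusted p of 0.848 by limma and 0.0118 with the block. Tomm6 had 37.2, 53.3, 79.5, 70.2 and 77.2 in atrial and 41.5, 31.7, 85.5, 88.9 and 79.1 in ventricular libraries, with replicates 1 and 2 low in both. Its log2 difference of 0.02 ± 0.33 had an adjusted p of 0.981 by limma, and reads of Tomm6 can be shared with Gm21981, identical over 56.8% of its transcript. Tomm34, a cytosolic partner of Hsp70 and Hsp90 chaperones, had 175, 193, 153, 153 and 164 in atrial and 246, 217, 147, 129.6 and 153 in ventricular libraries. The ventricular values spanned the atrial ones, and the log2 difference was -0.05 ± 0.18 with an adjusted p of 0.924 by limma.

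In the TIM23 complex, which takes presequence proteins across the inner membrane, Timm21 and Timm17a were called lower in atrial cells. Timm21, which docks the complex to TOM and to respiratory chain complexes, had 124, 166, 144, 153 and 144 normalized reads in atrial and 228, 261, 186, 189 and 225 in ventricular libraries. The chambers did not overlap. For Timm21 the log2 difference was -0.57 ± 0.13 with an adjusted p of 0.0132 by limma. Timm17a, a structural subunit of the channel, had 303, 446, 336, 315 and 295 in atrial and 457, 604, 509, 460.4 and 442 in ventricular libraries. Atrial replicate 2 stood above the lowest ventricular library, and every atrial library was below its partner. For Timm17a (chr1:135295213-135313778, minus strand) the log2 difference was -0.55 ± 0.14 with an adjusted p of 0.0232 by limma. Without atrial replicate 3, 4 or 5 or ventricular replicate 3, its adjusted p was 0.0544, 0.0626, 0.0662 and 0.0587. Its paralog Timm17b had 309, 553, 126, 119 and 116 in atrial and 315, 429, 117, 117 and 113 in ventricular libraries. Replicates 1 and 2 stood far above the others in both chambers, and the atrial library was the higher in 4 of 5 numbers. Timm17b had a log2 difference of 0.10 ± 0.54, a 95% interval of -1.08 to 1.28 and an adjusted p of 0.9502 by limma. The ratio of Timm17a to Timm17b was lower in atrial cells in 5 of 5 replicate numbers, at 0.807 to 2.66 in atrial and 1.41 to 4.35 in ventricular libraries, which overlap.

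Timm44, Timm23 and Timm50 complete the presequence path. Timm44, the inner membrane anchor of the matrix Hsp70 motor, had 1022, 1118, 600.4, 563 and 547 normalized reads in atrial and 1837, 1643, 898, 863 and 895 in ventricular libraries. Within each library set every atrial value lay below every ventricular one, while over all 10 libraries they overlapped. Timm44 had a log2 difference of -0.66 ± 0.29, with an adjusted p of 0.180 by limma and 0.000195 with the replicate block. Timm23, the channel subunit, had 127, 95.002, 172, 159 and 158 in atrial and 121, 141, 271, 238 and 239.7 in ventricular libraries. The atrial library was lower in 4 of 5 numbers, all but the first. On the log2 scale Timm23 differed by -0.46 ± 0.26, with an adjusted p of 0.297 by limma and 0.0192 with the block. Timm23 has 6 near-identical genes, among them Gm10273, which matches at 99.9% identity over 95.6% of its transcript and is not among the symbols of the tables. Timm50, the receptor that hands presequences to the channel, averaged 84.4 ± 15.5 in atrial and 102 ± 18.6 in ventricular libraries (SD, n = 5 each), with an adjusted p of 0.382 by limma. In the TIM22 complex for carrier proteins, neither Timm22 nor Timm29 was called with or without the block. Timm22, the channel, averaged 88.1 ± 18.7 in atrial and 103 ± 13.6 in ventricular libraries. Timm29, known from human cells as a subunit of this complex, had 470.3, 410.2, 265, 262 and 287 in atrial and 422, 441, 329.7, 249 and 308 in ventricular libraries. The chambers overlapped throughout, with replicates 1 and 2 the high ones in both, and the log2 difference of Timm29 was -0.06 ± 0.21.

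The small TIM chaperones form hexamers, Timm9 with Timm10 and Timm8a1 with Timm13, and Timm10 and Timm8a1 were called lower in atrial cells. Timm10 had 114, 143, 69.3, 78.4 and 68.2 normalized reads in atrial and 187, 261, 176, 167 and 164 in ventricular libraries. The chambers did not overlap, and replicates 1 and 2 were the higher libraries in each. Means were 94.6 ± 32.7 in atrial and 191 ± 40.1 in ventricular libraries (SD, n = 5 each), a 0.496-fold level. The log2 difference of Timm10 (chr2:84826997-84830213, plus strand) was -1.05 ± 0.23 with an adjusted p of 0.0103 by limma. Timm8a1, the mouse counterpart of the gene mutated in human deafness-dystonia syndrome, had 16.6, 23.0, 19.3, 18.3 and 23.8 in atrial and 31.1, 53.6, 35.9, 38.8 and 27.2 in ventricular libraries. The chambers did not overlap, with ventricular replicate 5 nearest to the atrial values. For Timm8a1 (chrX:134537256-134541865, minus strand) the log2 difference was -0.83 ± 0.22 with an adjusted p of 0.0276 by limma. Leaving out atrial replicate 3 or 4 or ventricular replicate 3 or 4 gave an adjusted p of 0.0674, 0.0726, 0.0651 and 0.0680 for Timm8a1. Reads of Timm8a1 can also come from the pseudogene Gm9797, identical over 43.1% of its transcript and not among the symbols.

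Of the 4 remaining small chaperones none was called by limma over all 10 libraries with chamber as its only term, and Timm13 and Timm8b were called lower with the block. Timm13, the partner of Timm8a1, had 44.1, 73.4, 55.7, 50.1 and 40.5 normalized reads in atrial and 55.4, 92.6, 88.6, 94.9 and 80.9 in ventricular libraries. Ventricular replicate 1 fell within the atrial range and the other 4 ventricular libraries lay above it. Its log2 difference was -0.64 ± 0.21, with an adjusted p of 0.0658 by limma, 0.0114 with the block, 0.0424 by edgeR and 0.00426 by DESeq2. Without atrial replicate 2 or ventricular replicate 1, limma's adjusted p for Timm13 was 0.0269 and 0.0173. Timm8b, a close relative of Timm8a1, had 396, 481, 297, 255 and 183 in atrial and 592, 475, 329.7, 338 and 357 in ventricular libraries. The chambers overlapped, with the atrial library lower in 4 of 5 numbers. Timm8b differed by a log2 value of -0.42 ± 0.26, with an adjusted p of 0.382 by limma and 0.0462 with the block. Of its exons, 15.6% lie over Nkapd1 on the opposite strand, which had a mean of 142 normalized reads. Timm9, the partner of Timm10, averaged 103 ± 26.0 in atrial and 129.8 ± 11.2 in ventricular libraries, with an adjusted p of 0.235 by limma and 0.0607 with the block. Timm10b, which binds the small chaperones to TIM22, averaged 63.6 ± 19.2 in atrial and 75.3 ± 9.22 in ventricular libraries, and 7.73% of its exons lie over Arfip2 on the opposite strand, which had the higher mean at 192 normalized reads.

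Of the Chchd genes, Chchd3 was called lower in atrial cells. Chchd3, a subunit of the MICOS complex that shapes crista junctions, had 1656, 2008, 1815, 1777 and 1740.3 normalized reads in atrial and 3578, 3685, 2782, 2926 and 3016 in ventricular libraries. All atrial libraries lay below all ventricular ones, in both library sets. Means were 1799 ± 131 in atrial and 3197 ± 407 in ventricular libraries (SD, n = 5 each), a 0.563-fold level. The log2 difference of Chchd3 (chr6:32790976-33060260, minus strand) was -0.82 ± 0.11 with an adjusted p of 0.000681 by limma. Its MICOS relative Chchd6 had 9.65, 36.0, 29.5, 28.3 and 20.6 in atrial and 41.5, 46.3, 27.9, 28.1 and 24.7 in ventricular libraries. The chambers overlapped and the single low library was atrial replicate 1. For Chchd6 the log2 difference was -0.50 ± 0.34 with an adjusted p of 0.424 by limma.

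Chchd4, the oxidoreductase that folds imported proteins by making disulfide bonds, had 114, 153, 85.8, 91.4 and 88.2 normalized reads in atrial and 152, 214, 126, 120.3 and 117 in ventricular libraries. Each atrial library was below its partner, and atrial replicate 2 was the single atrial library within the ventricular range. For Chchd4 the log2 difference was -0.45 ± 0.21, with an adjusted p of 0.216 by limma and 0.00528 with the replicate block. Chchd2 and Chchd10 are related intermembrane space proteins, both known for human variants in neurodegenerative disease. Chchd10 had 1683, 2032, 970.2, 834 and 709.9 in atrial and 1740.3, 2554, 1117, 1125 and 1085 in ventricular libraries. Chchd2 had 289.6, 337, 451, 411 and 367 in atrial and 439, 358, 549, 542 and 465 in ventricular libraries. Both were lower in atrial cells in 5 of 5 numbers with overlap between chambers, and replicates 1 and 2 were high for Chchd10 but low for Chchd2. The log2 difference was -0.32 ± 0.34 for Chchd10, with an adjusted p of 0.651 by limma and 0.0220 with the block. For Chchd2 it was -0.34 ± 0.16, with an adjusted p of 0.198 by limma and 0.0152 with the block.

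Among the other Chchd genes, Chchd7, a small protein of the intermembrane space, had 209.6, 235, 118, 101 and 90.1 normalized reads in atrial and 280.2, 346, 132, 128 and 128 in ventricular libraries. Each atrial library was below its partner, within a division between replicates 1 and 2 and the rest. Chchd7 differed by -0.40 ± 0.37 on the log2 scale, with an adjusted p of 0.6003 by limma and 0.0119 with the block. Chchd1, a protein of the small subunit of the mitochondrial ribosome, averaged 90.9 ± 9.50 in atrial and 124 ± 31.5 in ventricular libraries, with an adjusted p of 0.243 by limma. Ventricular replicate 2, at 70.7, was the single ventricular library below the atrial range, and without it the log2 difference was -0.59 ± 0.13 with an adjusted p of 0.0128 by limma. Chchd5, another small protein imported by the disulfide relay, averaged 49.9 ± 13.9 in atrial and 50.3 ± 16.5 in ventricular libraries, with a log2 difference of -0.00093 and a 95% interval of -0.58 to 0.58.

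**Figure D3:**
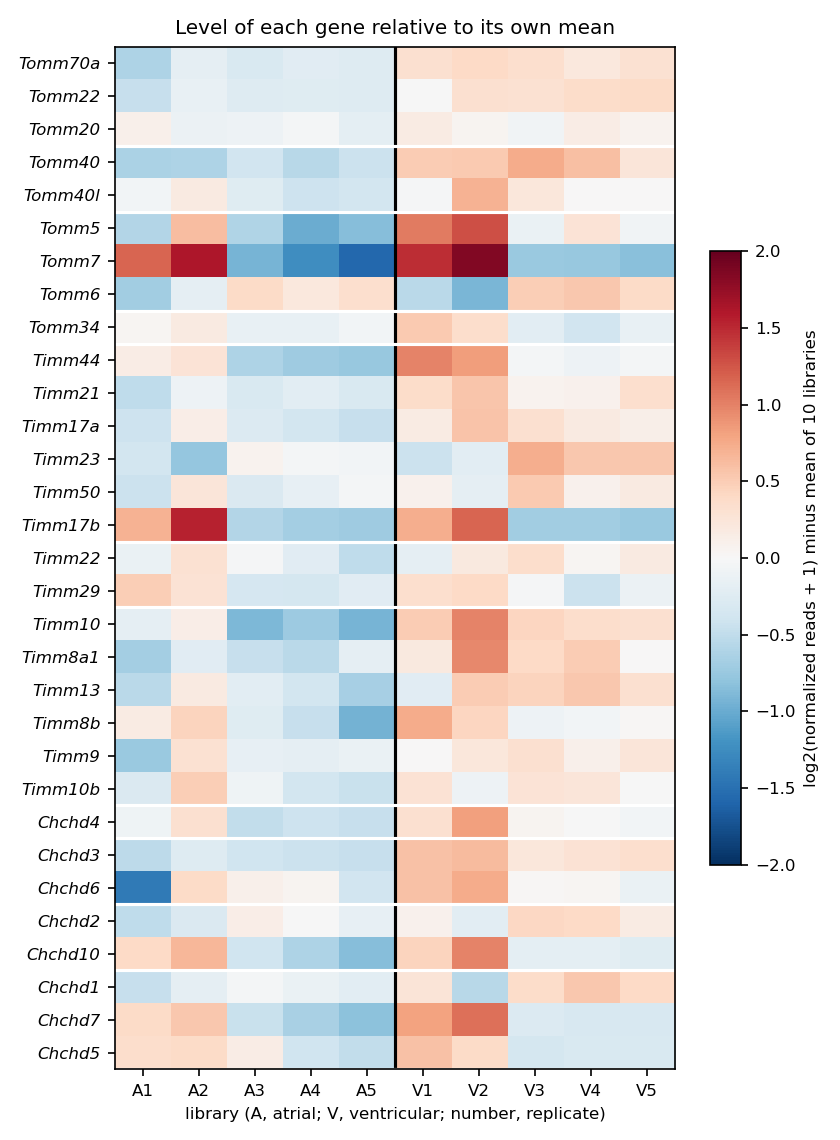
Level of each tested gene in each of the 10 libraries as log2(normalized reads + 1) minus the gene's mean over the libraries (colour, blue low to red high), atrial libraries left and ventricular right, genes ordered by role. Tomm40 and Chchd3 are blue in all 5 atrial libraries, while Tomm7, Timm17b, Chchd10 and Chchd7 are red in replicates 1 and 2 of both chambers.

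Several of these genes also differed between the library sets. In 9 of the 31 genes, 29.0%, the mean of replicates 1 and 2 was over 1.5 times that of replicates 3 to 5 in both chambers, against 11.2% of all genes tested. Tomm7 had the highest ratio, 6.20 in atrial and 5.48 in ventricular libraries, followed by Timm17b with 3.58 in atrial and 3.21 in ventricular libraries. Tomm6 alone was lower by that margin in both chambers, with ratios of 0.598 in atrial and 0.433 in ventricular libraries, against 13.8% of all genes tested. None of the 8 genes called without the block is among these 10. Without the block, a difference between the sets adds to the spread within a chamber, as in the SE of 0.77 for Tomm7. How far this bears on which genes were called was not tested, and the same count over all genes was not made. Depth and the share of Rn45s move with the same division, and their part in these values was not tested.

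Within replicates 3 to 5, limma called 24 of the 31 genes lower in atrial cells and none higher, against 26.6% of all genes called lower. Within replicates 1 and 2 it called 2, Tomm40 and Chchd3, against 2.04% of all genes, and none higher. Tomm40 had a log2 difference of -1.14 ± 0.24 within the set numbered 1 and 2 and -0.99 ± 0.10 within that numbered 3 to 5. Chchd3 had one of -0.99 ± 0.17 in the first of these sets and -0.71 ± 0.06 in the other. An interaction test by limma for an unequal chamber difference between the sets called 0 of the 31 genes, against 5.21% of all genes. Of the 31, 2 had an unadjusted p under 0.05 in that test, Tomm34 and Chchd3, against 20.2% of all genes, and edgeR also called 0. For Tomm34 the chamber difference was -0.33 ± 0.23 in the libraries numbered 1 and 2, against 0.13 ± 0.09 in those numbered 3 to 5, with an adjusted interaction p of 0.163 by limma. Leaving out atrial replicate 2 changed the result for Chchd3, Chchd6 and Tomm70a, with log2 interaction estimates of -0.42, -2.02 and -0.43. Leaving out ventricular replicate 1 changed that for Chchd1, with an estimate of 0.80. In each of these fits, 1 library stood for a chamber in the set numbered 1 and 2, so only the estimates are given.

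**Figure D4:**
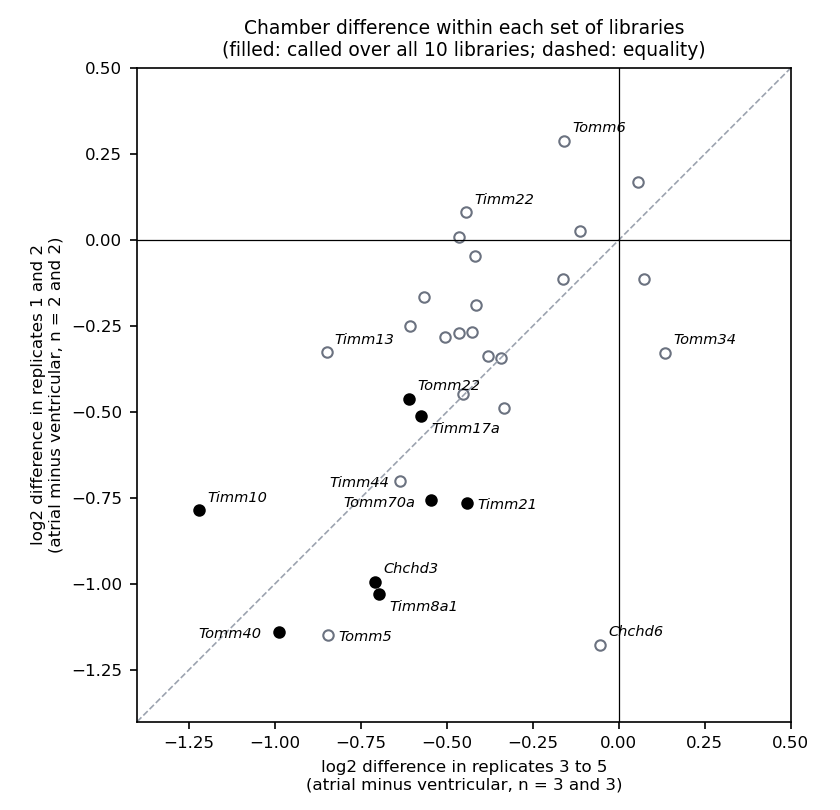
Log2 difference (atrial minus ventricular) of the 31 tested genes in replicates 3 to 5 (x axis) and in replicates 1 and 2 (y axis), with the dashed line marking equal values. Tomm40 and Chchd3 are far from 0 on both axes, and Chchd6 differs most between them, at -0.05 in replicates 3 to 5 and -1.18 in replicates 1 and 2.

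Per kilobase of exon, Tomm7, Chchd10, Timm8b and Chchd3 had the highest mean levels in both chambers, in an order that rests on replicates 1 and 2. In atrial libraries Tomm7 averaged 883 ± 841 normalized reads per kilobase, Chchd10 791 ± 368, Timm8b 622 ± 227 and Chchd3 619 ± 44.9 (SD, n = 5). In ventricular libraries Chchd3 averaged 1101 ± 140.1, Tomm7 1088 ± 976, Chchd10 968 ± 405 and Timm8b 808 ± 219. Within replicates 3 to 5, an alternative added after seeing the data, Chchd3 was in place 1 and Tomm7 in place 4 in both chambers. There Chchd3 averaged 612 ± 12.9 in atrial and 1001 ± 40.7 in ventricular libraries, and Tomm7 averaged 287 ± 62.5 in atrial and 389.6 ± 13.6 in ventricular libraries (SD, n = 3 each). Over all 5 libraries, the SDs of Tomm7, Chchd10 and Timm8b overlap those of their neighbours in this order in both chambers. Chchd6 was the lowest in both, at 9.81 ± 3.99 per kilobase in atrial and 13.3 ± 3.79 in ventricular libraries. Tomm40 stood at 27.3 ± 2.11 in atrial and 56.9 ± 6.88 in ventricular libraries, in place 26 of 31 in atrial and 21 of 31 in ventricular cells. Divided by the longest transcript in place of all exons, Tomm40 stood at 44.6 in atrial and 92.9 in ventricular libraries, in places 22 and 15, and Chchd3 at 1161 in atrial and 2063 in ventricular libraries, first in both.

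The partners of these complexes were taken from 7 lists of other mitochondrial genes, some of which share members. The lists were chosen with results of these data known and are described by counts and medians, beside 6.56% of all genes called lower and a median of -0.01. Of 11 genes of the presequence motor and matrix chaperones, 5 were called lower by limma and none higher, with a median log2 difference of -0.69. Trap1, a matrix Hsp90, averaged 646 ± 85.7 normalized reads in atrial and 1296 ± 74.6 in ventricular libraries, with an adjusted p of 0.000204 by limma. Grpel1, the exchange factor of the matrix Hsp70, averaged 481 ± 39.7 in atrial and 775 ± 20.2 in ventricular libraries, with an adjusted p of 0.000551 by limma. Hspd1, the chaperonin that folds imported proteins, had a log2 difference of -0.85 ± 0.15, and Hspa9, the matrix Hsp70 itself, one of -0.75 ± 0.14. In MICOS, 2 of 6 were called lower and 6 of 6 with the block, at a median of -0.57. Micos10, a core subunit, averaged 465 ± 105 in atrial and 999.6 ± 143 in ventricular libraries, and Immt, the scaffold to which Chchd3 binds, averaged 2623 ± 192 in atrial and 4512 ± 549 in ventricular libraries.

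Of 17 other substrates and helpers of the disulfide relay, 6 were called lower and none higher, with a median of -0.41. They include the respiratory chain subunits Ndufb7, Ndufb10 and Cox6b1, and the copper chaperone Cox17, which averaged 374 ± 107 in atrial and 750.2 ± 111 in ventricular libraries with an adjusted p of 0.00404 by limma. Of 9 genes of outer membrane assembly and insertion, 2 were called lower (Mtx2, of the sorting and assembly machinery, and the channel Vdac1) and none higher, with a median of -0.35. With the block 5 of the 9 were called lower, and Mtch1, named here after its values were seen, was called higher. Of 10 genes for processing peptidases and inner membrane insertion, 1 was called lower, the insertase Oxa1l, at 423 ± 26.1 in atrial and 716 ± 108 in ventricular libraries, and none higher, with a median of -0.38. With the block 8 of the 10 were called lower. Of 16 genes of proteases and stress response, 2 were called lower, the prohibitins Phb and Phb2, and none higher, at a median of -0.24. With the block 6 of the 16 were called lower. The nuclear subunits of oxidative phosphorylation, a large share of what heart mitochondria import, had 41 of 71 called lower and none higher, with a median of -0.68. With the block 68 of the 71 were called lower, with equal totals 25, and in replicates 1 and 2 alone 19. Of all genes, those settings called 16%, 4.34% and 2.04% lower. In replicates 1 and 2 alone, 4 presequence motor genes, 2 MICOS genes and 1 processing gene were called lower. None of the disulfide relay, outer membrane or protease and stress genes was called there. Equal totals also left 3 of the presequence motor genes and 1 of the protease and stress genes called. Without atrial replicate 1, 2 or 3 or ventricular replicate 3, 4 or 5, 1 gene of outer membrane assembly was called lower. Without ventricular replicate 1 or 2, 2 genes of processing and insertion were.

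**Figure D5:**
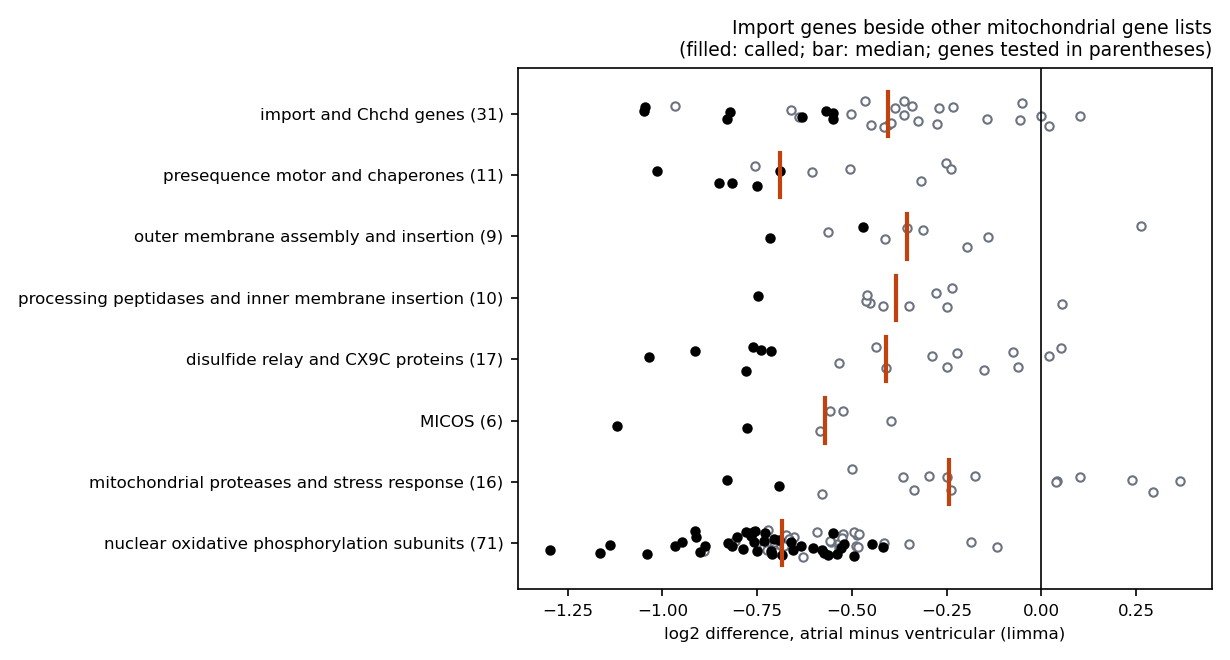
Log2 difference (atrial minus ventricular, x axis) of each tested gene in the import and Chchd set and in 7 other mitochondrial lists, each point 1 gene, filled where limma called it at an adjusted p under 0.05, with the median as a bar. The import and Chchd genes have a median of -0.41, and the oxidative phosphorylation subunits one of -0.68.

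Markers of other cells moved with the chamber as well. Of all 12422 genes tested, limma called 815 lower and 1009 higher in atrial libraries. With the block it called 1991 lower and 2026 higher. Within replicates 3 to 5 these counts were 3307 and 3254, and within replicates 1 and 2 they were 254 and 384. With 1 library left out they ran from 590 to 883 lower and from 761 to 1055 higher. All 6 epicardial markers tested were called higher in atrial libraries by limma, and their summed level lay at 2561 to 6066 normalized reads in atrial and 332 to 1703 in ventricular libraries. The count was 4 without atrial replicate 3, 4 or 5, and 5 without atrial or ventricular replicate 2. Within replicates 1 and 2 it was 3. Of 8 endothelial and endocardial markers 3 were higher (Kdr, Tek and Npr3), a count of 1 without atrial replicate 1, 3, 4 or 5 or ventricular replicate 3, of 2 without ventricular replicate 1, 2, 4 or 5 and of 3 without atrial replicate 2, with sums of 1226 to 4227 in atrial and 292 to 1543 in ventricular libraries. Pecam1 and Cdh5 of this list went the other way, at log2 differences of -0.48 ± 1.40 and -0.87 ± 1.19, and neither was called. Within replicates 3 to 5, 2 of the 8 were called lower and 4 higher. Of 7 smooth muscle and pericyte markers 2 were lower (Myh11 and Acta2), with sums of 1689 to 6544 in atrial and 9002 to 15453 in ventricular libraries. Cnn1 of the same list had a log2 difference of 1.76 ± 0.58 with an adjusted p of 0.0696 by limma, and was called higher with the block, by edgeR and by DESeq2. Of 8 fibroblast markers 2 were lower (Lum and Pdgfra), a count of 4 without ventricular replicate 1, of 2 without ventricular replicate 2, of 1 without any other single library and of 7 within replicates 3 to 5, with sums of 14438 to 33391 in atrial and 6093 to 52021 in ventricular libraries. Neuronal and Schwann markers had 1 of 2 tested higher, and 0 of 2 without atrial replicate 3, 4 or 5 or ventricular replicate 5, with sums of 54.7 to 91.0 in atrial and 39.4 to 60.9 in ventricular libraries. Blood and immune markers had 1 of 3 tested higher, with sums of 76.6 to 171 in atrial and 22.9 to 142 in ventricular libraries, and the hemoglobins Hbb-bs and Hba-a1 stood at 0 in all 10. Of 14 cardiomyocyte markers, the atrial Myl7, Myl4, Sln and Nppa were higher and the ventricular Myl2, Myl3 and Irx4 lower. Of the 7 shared ones none was called without the block, while Tnnt2, Actn2 and Actc1, all of the contractile apparatus, were called lower with it. Tnnt2 averaged 64596 ± 6577 in atrial and 90650.2 ± 15259 in ventricular libraries, with an adjusted p of 0.0513 by limma and 0.000906 with the block. Myh6, the main cardiac myosin of the mouse, averaged 192608 ± 48772 in atrial and 183377 ± 21327 in ventricular libraries and was called in neither. The part of these other cells in the differences of the import genes was not tested.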

How the data were processed

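Total RNA of 5 atrial and 5 ventricular cardiomyocyte libraries was sequenced from ScriptSeq v2 preparations, per the labels' protocols. Trimmomatic, HISAT2 and featureCounts with GRCm38 (mm10) are named in the submitters' processing notes. For these tools no version is known here, nor the annotation or strand setting. Per the file headers, each deposited signal is a gene's reads after the authors scaled the library by its DESeq2 size factor. Dividing by the smallest step gave whole reads for 100% of values within 0.01, and these reads gave the depths. A value of 0 allows up to 3 reads, or 1.70 to 10.4 normalized reads by library, for counting error only.

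All 12422 genes whose mean reached 10 normalized reads were tested with limma 3.58.1 (R 4.3.3, trend and robust variance, two-sided) on log2(value + 1), a scale that understates differences of low genes. Differences are atrial minus ventricular, given ± SE, and means ± SD. On recovered reads, edgeR 4.0.16 called 2012 genes and DESeq2 1.42.0 called 2575, against 1824 by limma; the code was checked on simulated data. The members, roles and lists were chosen with earlier results of these data known. Library values are given for genes called with or without the block and for the highest gene of each role, and for Tomm20, Tomm6, Timm17b and Chchd6, added after their values were seen, and up to 4 genes of a list are named by smallest p. Libraries with the same number deviated together from their chamber's mean, with correlations of 0.582, 0.637, 0.623, 0.556 and 0.631. All were over 0.1. Among the fits, the numbers pair the libraries only in those with the replicate block, which were alternatives. The main test had chamber as its only term. Correlations between libraries of different numbers are not given here, and the division into library sets is shared by both chambers. The same-number correlations therefore cannot tell pairing by number from membership in the same set. The labels give only the numbers.

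Alternatives were other pseudocounts, filters, scalings, terms, tools, subsets of libraries and each library left out; leaving out libraries in the interaction test and levels within replicates 3 to 5 were added after seeing the data. Positions are from GENCODE M21. Near-identical genes matched at 95% identity or more over at least 100 bases and 10% of a transcript. Exons of 12 members overlap those of another gene, and without a stated strand setting such reads cannot be told apart.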

Additional observations from a re-analysis of the deposited data

Results flagged for a closer look

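In 4 of 62 groups of 5 libraries, 1 library stood apart from the other 4 by Dixon's 95% criterion (a gap of over 0.71 of the range), where chance alone gives about 1 in 20. Atrial replicate 2 had 248 normalized reads of Tomm5, against 80.2 to 108 in the other atrial libraries. The same library had 446 of Timm17a, against 295 to 336 in the others. Ventricular replicate 2 had 261 of Timm10, against 164 to 187 in the other ventricular libraries. Ventricular replicate 1 had 242 of Tomm22, against 303 to 318. All 3 libraries belong to the shallower set numbered 1 and 2, and the part of depth in these values was not tested.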

How the results depend on the processing

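The count of 8 import and Chchd genes called lower stayed within 1.5 times under other pseudocounts, filters, TMM scaling, edgeR and DESeq2 (7 to 9), and at 6 to 10 with 1 library left out. It was 3 with equal totals, 19 with the replicate block, 17 with the library set as a term, 2 in replicates 1 and 2 only and 24 in replicates 3 to 5 only. Over all genes those settings called 539, 1991, 1966, 254 and 3307 lower, and the last 4 called 2026, 1989, 384 and 3254 higher. No import gene was called higher in any of them. Unequal chamber differences between the sets were called for 0 to 3 import genes and 212 to 1686 of all genes with 1 library left out (647 over all libraries), and for 0 import genes and 1272 of all genes with the replicate block. Tomm40 and Chchd3 were called in all 22 alternatives, Tomm70a in 21, Timm10, Timm21 and Tomm22 in 20, Timm17a in 16 of 22 and Timm8a1 in 14 of 21. No called gene changed direction. Among genes not called, Chchd5 turned to 0.0669 with equal totals, 0.0011 with TMM, 0.0734 in replicates 3 to 5, 0.0421 by edgeR and 0.0501 by DESeq2. Timm10b turned to 0.0084 and Timm22 to 0.0807 in replicates 1 and 2. Timm29 turned to 0.0119 with equal totals and 0.0255 in replicates 1 and 2, Tomm34 to 0.0182 with equal totals and 0.13 in replicates 3 to 5, and Tomm6 to -0.16 in replicates 3 to 5 and -0.0836 by edgeR and -0.0839 by DESeq2. With 1 library left out, log2 differences spanned -0.0970 to 0.144 for Chchd5, -0.27 to 0.41 for Timm17b, -0.19 to 0.0339 for Timm29, -0.15 to 0.0749 for Tomm34, -0.21 to 0.20 for Tomm6 and -0.84 to 0.0266 for Tomm7. The cause of these changes was not tested. Depth limits Timm8a1 and Chchd6 most, whose 9.65 to 53.6 normalized reads stand for few reads in the shallower libraries.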
